A study of Homo sapiens with 24 samples.

Results

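BRD9, MAP3K7, ZDHHC16, DVL2, PPP2R5A, DLST, TMEM14C, DPH5 and ORAI2, 9 genes whose pre-mRNAs are known to gain cryptic 3′ splice sites in SF3B1-mutant cancers, were followed through splice junction usage in HCT116 cells, a human colorectal carcinoma line. Every listed junction or exon–intron boundary on the strand and within the GRCh37 span of these genes was taken, which gave 1591 of the 1823643 entries used. These comprised 1105 entries for spliced junctions and 486 entries for boundaries, and they ranged from 56 entries for ORAI2 to 418 for BRD9. The cells carried a lentiviral transgene for either wild-type PHF5A (WT) or PHF5A with the Y36C substitution, in addition to the PHF5A gene of the line itself, and each line was treated with DMSO or with the splicing modulator E7107 for 6 h as the methods state, at a dose that the labels do not give. The design was 2 by 2, with 6 samples in each of the 4 groups, named below by line and treatment (WT DMSO and so on), and no label names an SF3B1 mutation in them. Nothing in the labels ties the 6 samples of a group to separate cultures, so p-values measure the spread between these samples. Between 281164 and 340081 of 636130 splice sites had reads in a sample, with the lowest numbers in WT E7107, and the read count behind a single value is unknown.

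SF3B1 and PHF5A belong to SF3b, the part of the U2 small nuclear ribonucleoprotein that holds the branch point adenosine before the first step of splicing, and E7107 is a pladienolide derivative that binds SF3b. Hotspot mutations of SF3B1 in leukaemias, myelodysplastic syndromes and uveal melanoma shift branch point choice, so that an AG a short way upstream of the normal 3′ splice site is used. The question put to these genes was whether a different change in the same complex, the modulator or PHF5A Y36C, moved the same sites, and what happened to the introns and exons around them. Usage is given as percent spliced in (PSI), the percentage of reads at 1 splice site that take a given junction or, for a boundary, that run unspliced across the exon–intron border. PSI at the donor compares all acceptors joined to 1 donor, and a boundary PSI is a measure of intron retention.

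The 3′ splice sites at the 3 upstream sites that were tested, at the 2 others with reads in the most samples and at the extra exon of BRD9 are shown first, 5′ to 3′ and in GRCh37 coordinates. Capitals mark the AG of the upstream site and, after it, the AG of the normal site, and in BRD9 the AGs of both entry sites of the extra exon.
MAP3K7 intron 4 (chr6:91269928-91269995, minus strand): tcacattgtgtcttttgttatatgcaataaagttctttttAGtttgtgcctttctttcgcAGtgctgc
DLST intron 5 (chr14:75356539-75356605, plus strand): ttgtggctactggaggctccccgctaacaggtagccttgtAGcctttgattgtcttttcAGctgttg
TMEM14C intron 1 (chr6:10724773-10724802, plus strand): actacctctgatccAGcttgttttctgcAG
PPP2R5A intron 4 (chr1:212519090-212519150, plus strand): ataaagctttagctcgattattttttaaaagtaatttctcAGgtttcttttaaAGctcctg
ZDHHC16 intron 9 (chr10:99215354-99215422, plus strand): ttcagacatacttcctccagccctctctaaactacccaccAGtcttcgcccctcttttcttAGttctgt
BRD9 exon inside intron 14 (chr5:869504-869561, minus strand): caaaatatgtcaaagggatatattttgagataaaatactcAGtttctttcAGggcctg

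The sites lay 13 to 28 bases upstream of the normal AG over the 9 genes, each taken at the upstream site with the highest mean PSI, and 10 bases apart in the BRD9 exon. Over 8 of these sites, BRD9 left out for having reads in 1 sample only, the median number of adenines in the 20 bases before the upstream AG was 5, against 3 over the 1019 upstream sites of all genes that were used in every sample of a group. The median number of pyrimidines in the same 20 bases was 11.5 for these sites and 13 for all. The 2 sets were not chosen alike. Of the 8 sites only those of MAP3K7, DLST and TMEM14C were used in every sample of a group, and these had 6, 4 and 4 adenines. These counts describe the letters in the window and identify no branch point.

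In all, 21 upstream sites 5 to 50 bases before a normal 3′ site were listed in the 9 genes, of which 7 are annotated, and 15 of them had reads in 4 or fewer of the 24 samples. The 3 sites that had reads in all 6 samples of at least 1 group were those of MAP3K7, DLST and TMEM14C, and all 3 are annotated acceptors. The first fell with E7107 in WT cells, the second rose in Y36C cells, and the last passed no test. Usage of these 3 sites was measured as the share of the upstream site among reads spliced to the upstream or the normal site, which leaves retention out. It was compared by exact two-sided permutation over all ways of dividing 12 samples, with p-values adjusted over a family of 20 tests that includes the BRD9 exon.

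**Figure D1:**
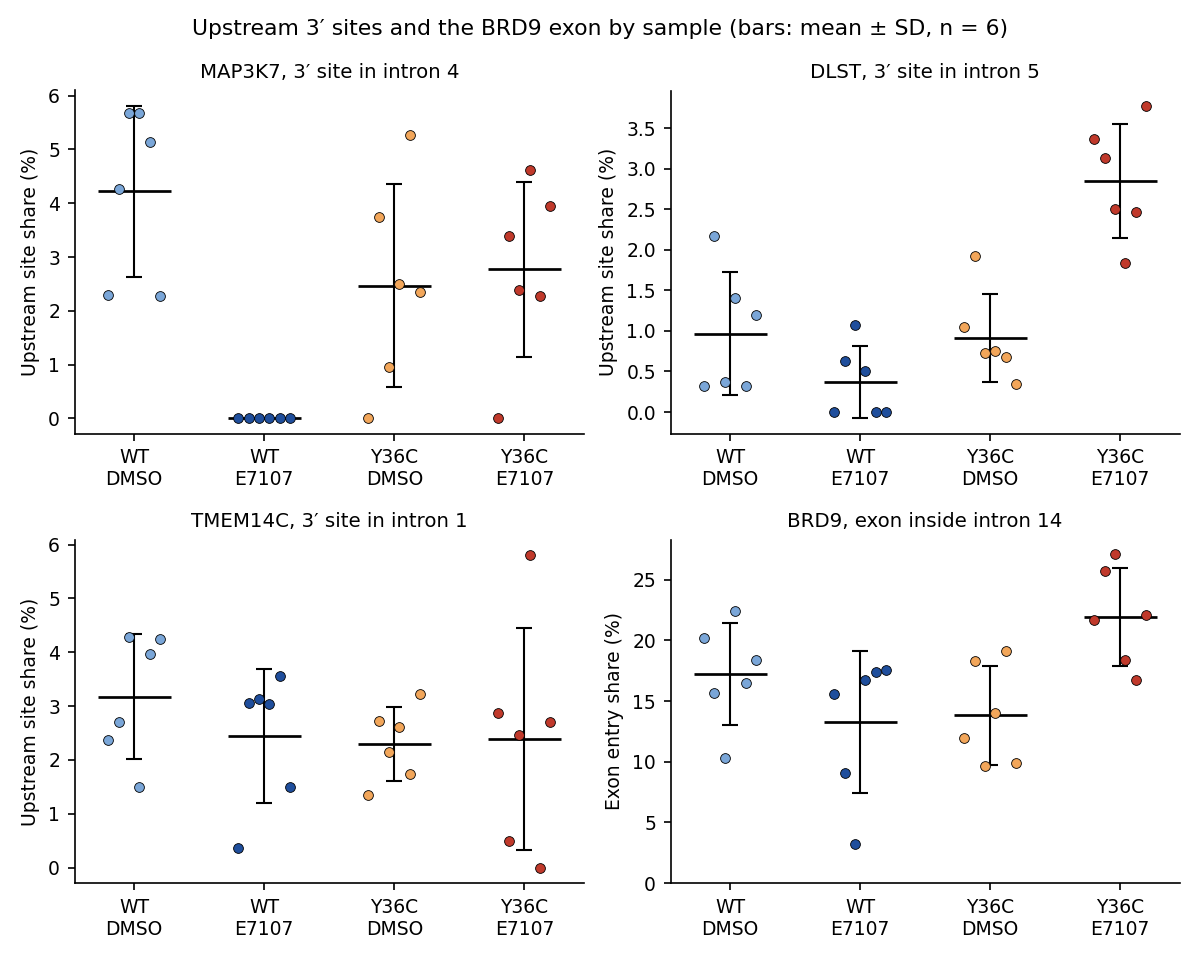
Share of splicing that used the upstream 3′ site (vertical axes, percent) in MAP3K7, DLST and TMEM14C, and share of splicing that entered the extra exon in BRD9 intron 14, for each of 6 samples in the 4 groups, with bars at mean ± SD. The MAP3K7 site was at 0 in all 6 samples of WT E7107, the DLST site and the BRD9 exon were highest in Y36C E7107, and the TMEM14C groups overlapped.

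MAP3K7 encodes TAK1, a kinase that relays signals of TGF-β and inflammatory receptors to NF-κB and the stress kinases. Its upstream site in intron 4, 20 bases before the normal one, took a share of 2.27% at the lowest, 4.69% at the median and 5.68% at the highest in WT DMSO. In WT E7107 it was listed at 0 in all 6 samples, so the groups did not overlap. In Y36C cells it was above 0 in 5 of 6 samples with DMSO, with a median share of 2.43% and a highest of 5.26%, and in 5 of 6 with E7107, with a median of 2.89% and a highest of 4.62%. The site passed the filter only through WT DMSO, the group where it is highest, which favours a fall. The share fell in WT cells by 4.22 points (exact permutation, adjusted p = 0.0142), and the Y36C share of 2.77% ± 1.63 (SD, n = 6) was above that of WT cells under E7107 (exact permutation, adjusted p = 0.0337). In Y36C cells the difference between E7107 and DMSO was 0.298 points (exact permutation, adjusted p = 0.924). The difference between the 2 drug effects was 4.52 points (exact permutation, adjusted p = 0.0142), and limma on the log odds of PSI over all entries gave 1.74 ± 0.40 (SE) for it (adjusted p = 0.000866). Small values were seldom listed at this donor in WT E7107, and the zeros must be read with that limit. The smallest value above 0 listed for any junction or boundary at this donor was between 4.55% and 100% in those samples, with a median of 18.6%, against 1.05% to 5.68% in WT DMSO, and the part of depth in the fall was not tested.

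DLST encodes the dihydrolipoyl succinyltransferase subunit of the 2-oxoglutarate dehydrogenase complex of the citric acid cycle. Its upstream site in intron 5, 19 bases before the normal one, had shares from 0.322% to 2.17% with a median of 0.782% in WT DMSO, and from 0 to 1.07% with a median of 0.251% in WT E7107. In Y36C cells the shares ran from 0.347% to 1.92% with a median of 0.745% with DMSO and from 1.84% to 3.77% with a median of 2.81% with E7107. The site was used most in Y36C E7107, where 5 of 6 samples lay above every other sample and the lowest lay below 2 DMSO samples, 1 of each line. The rise in Y36C cells was 1.93 points (exact permutation, adjusted p = 0.0144), and the Y36C share exceeded that of WT cells under E7107 by 2.48 points (exact permutation, adjusted p = 0.0142). In WT cells the change was -0.598 points (exact permutation, adjusted p = 0.209). The 2 drug effects differed by 2.53 points (exact permutation, adjusted p = 0.0142), and by 0.99 ± 0.24 (SE) on the log odds scale (limma, adjusted p = 0.00167).

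TMEM14C encodes a mitochondrial inner membrane protein needed for haem synthesis, and its site, 14 bases upstream of the normal end of intron 1, is among those most often used in SF3B1-mutant cells. Here its share had a median of 3.34% with DMSO and 3.05% with E7107 in WT cells, with highest samples of 4.29% and 3.56%. In Y36C cells the medians were 2.37% and 2.59% and the highest samples 3.23% and 5.80%. The groups overlapped throughout. None of the 5 comparisons passed the exact permutation test, with adjusted p from 0.238 to 0.965, and none passed limma. Reads that ran unspliced across the upstream AG, counted against reads spliced to it, had a median of 37.5% in WT DMSO and 0 in WT E7107. This boundary fell in WT cells by 3.22 log odds units (limma, SE 0.58, adjusted p = 0.000442). It passed the filter only through WT DMSO, the group where it is high, which favours a fall. The read count at this little-used AG is unknown, and the part of depth was not tested. The same boundary measured 56.7% and 53.8% at the median in Y36C DMSO and Y36C E7107.

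The upstream sites of the other 6 genes were not above 0 in all 6 samples of any group and were not tested. PPP2R5A encodes a B56 regulatory subunit of protein phosphatase 2A, and its site 13 bases upstream in intron 4 was above 0 in 3 of 6 WT DMSO samples, 0 of 6 WT E7107 samples and 4 of 6 samples in each Y36C group. The mean PSI there was 1.47% ± 1.70 (SD, n = 6) in WT DMSO, and in Y36C cells 2.4% ± 1.95 with DMSO and 3.23% ± 3.10 with E7107, and the smallest listed value above 0 at this donor ran from 6.67% to 100% in WT E7107 and from 1.35% to 100% in WT DMSO. ZDHHC16, a protein palmitoyltransferase, had reads 21 bases upstream in intron 9 in 13 of 24 samples, with means of 0.629% ± 0.691 with DMSO and 1.94% ± 1.74 with E7107 in WT cells, and of 0.509% ± 0.807 and 1.15% ± 0.945 in Y36C cells. DPH5, a methyltransferase of diphthamide synthesis, DVL2, a scaffold of Wnt signalling, and ORAI2, a calcium channel subunit, had reads at the leading site in 4 of 24 samples each. The highest group mean of PSI at an ORAI2 site was 8.33%, 41 bases upstream in intron 1 in WT E7107, and it came from 1 of 6 samples, at 50%. In BRD9 the single upstream site of this kind had reads in 1 sample.

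Across all genes, PSI of upstream sites of the same class fell more often than it rose in WT cells and rose more often than it fell in Y36C cells. This is PSI at the donor with retained reads included, not the share used above. A change in it need not be a shift between the upstream and the normal site. In WT cells 4.83% of the 621 sites tested rose and 29.1% fell (limma, adjusted p of 0.05 or less), and in Y36C cells 20.4% of 904 rose and 3.32% fell. Under E7107 50.8% of 767 were higher and 5.22% lower in Y36C than in WT cells, the interaction was positive at 33.9% of 940 and negative at 1.49%, and with DMSO 0.899% of 779 were higher and 1.16% lower. Of the members, the fall of MAP3K7 in WT cells was 1 call among 3 sites tested, the rise of DLST in Y36C cells was 1 among 2, and both had a positive interaction, 2 among 3. An entry was tested only where it was above 0 in all 6 samples of a group, which favours entries that differ, and so the member counts of every kind of entry are read only beside the background.

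BRD9, a bromodomain subunit of the noncanonical BAF chromatin remodelling complex, is a target of another kind, since SF3B1-mutant cells include an extra exon with a premature stop from inside its intron 14. That exon was measured here in all 4 groups. It ends at position 869360 and begins at 869509 or 869519 of chromosome 5, read on the minus strand, which gives exons of 150 or 160 bases from the 2 AGs printed above. The share of splicing from the exon 14 donor that entered it by either AG, rather than crossing to exon 15, had a median of 17.5% (10.3% to 22.4%) with DMSO and 16.1% (3.23% to 17.6%) with E7107 in WT cells. In Y36C cells the medians were 13.0% (9.68% to 19.1%) and 21.9% (16.7% to 27.1%). Of the 6 Y36C E7107 samples 2 lay above every other sample, and the lowest lay inside the range of each other group. The share rose in Y36C cells by 8.13 points (exact permutation, adjusted p = 0.0271) and was 8.68 points above that of WT cells under E7107 (exact permutation, adjusted p = 0.0247). In WT cells it changed by -4.00 points (exact permutation, adjusted p = 0.291). With retained reads included, PSI of the exon at the donor fell in WT cells from 16.2% ± 4.17 to 6.58% ± 3.07 (SD, n = 6; exact permutation, adjusted p = 0.0108). The 2 drug effects differed by 12.1 points in share (exact permutation, adjusted p = 0.0144). These shares measure entry only. The exit, from the exon to the end of intron 14, was measured as PSI at that acceptor. In Y36C cells it was 4.6% ± 1.73 with DMSO and 6.24% ± 3.4 with E7107 (limma, adjusted p = 0.551). Under E7107 the difference between lines did not pass (limma, adjusted p = 0.136). In WT cells the exit fell from 8.66% ± 3 to 3.5% ± 2.3 (limma, adjusted p = 0.00663). Its drug effects differed by 1.10 log odds units (limma, adjusted p = 0.0088).

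The 2 entry sites of this exon were also measured apart. Entry at the downstream AG, which gives the 150-base exon, rose in Y36C cells, from a PSI of 4.73% ± 1.38 with DMSO to 11.8% ± 3.77 with E7107 (limma, log odds 0.88 ± 0.18 SE, adjusted p = 0.00512). Entry at the upstream AG measured in the same cells 8.17% ± 3.25 and 7.82% ± 1.74 (limma, adjusted p = 1). A test of the 1 site against the other was not made. In WT cells the downstream AG fell from 9.64% ± 1.78 to 3.52% ± 2.79 (limma, adjusted p = 0.011), and the upstream AG measured 6.53% ± 2.97 and 3.06% ± 1.80 (limma, adjusted p = 0.0775). From the donor of the exon onward, the junction to a further annotated acceptor inside intron 14 took a median of 11.4% with DMSO and 0 with E7107 in WT cells. In Y36C cells the medians were 18.7% and 32.7%, a change that did not pass the test (limma, adjusted p = 0.215). Under E7107 the junction was higher in Y36C than in WT cells (limma, log odds 3.59, adjusted p = 1.81e-06). That comparison passed the filter only through Y36C E7107, the group where the junction is high, which favours such a difference.

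Several intron ends named here passed the filter only through the group where they are high, and the rises and falls at these ends are favoured by it. Intron retention rose with E7107 at nearly every intron end of BRD9 and DVL2 in WT cells, and fell at ends of ZDHHC16 and DPH5. Of 139 member boundaries tested in WT cells, 69 rose with E7107 (49.6%) and 20 fell (14.4%), where 70.9% of all 107252 boundaries tested rose and 5.78% fell. Of 124 tested in Y36C cells, 38 rose (30.6%) and 0 fell, with 4 lower at an unadjusted limma p under 0.05, where 27.5% of 87475 rose and 1.43% fell. Over the members the change had a median of 2.92 points in the WT line and 3.85 points in the Y36C line, and over all boundaries of 11.1 and 2.00 points. The difference of drug effects was positive at 27 of 148 member boundaries (18.2%) and negative at 42 (28.4%), where 8.97% and 54.9% of all were. By gene, the mean over both ends of every intron of the canonical transcript was, with DMSO and E7107 in WT cells, 7.33% ± 0.800 and 51.1% ± 4.09 in BRD9 and 4.75% ± 0.446 and 22.9% ± 2.63 in DVL2 (SD, n = 6). It was 8.49% ± 0.834 and 4.14% ± 0.884 in ZDHHC16, 4.72% ± 0.448 and 3.70% ± 0.644 in DPH5, and 1.43% ± 0.185 and 0.761% ± 0.359 in TMEM14C, so that in these 3 genes the WT E7107 value lay below the DMSO value.

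**Figure D2:**
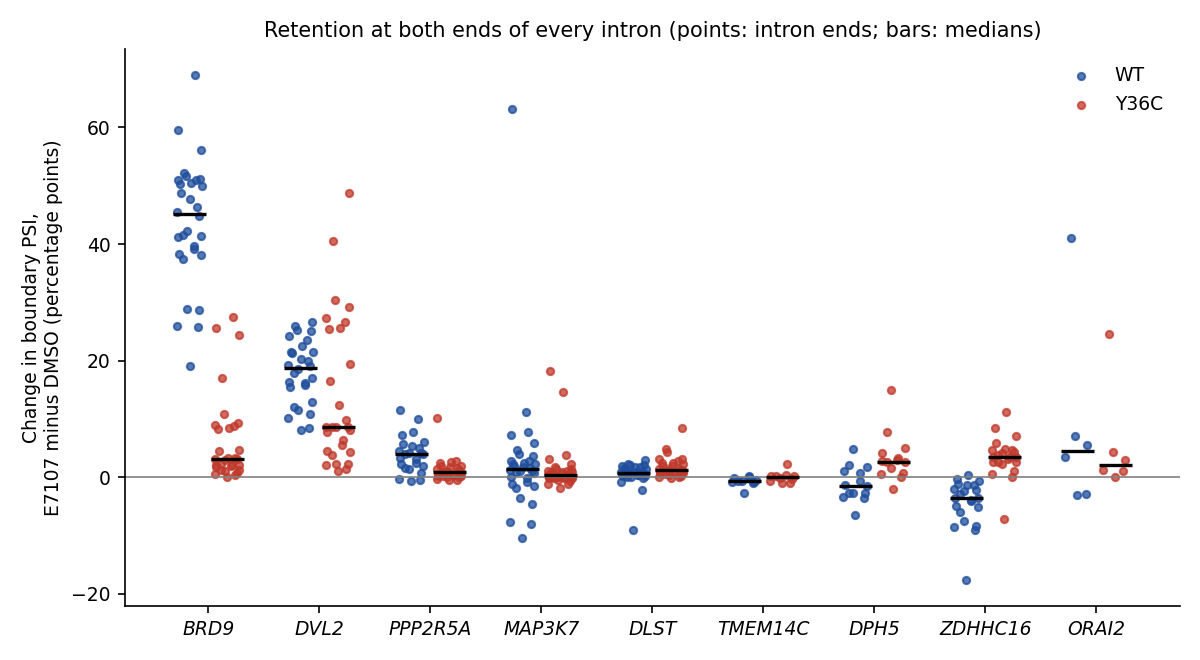
Change in mean boundary PSI between E7107 and DMSO (vertical axis, percentage points) at both ends of every intron of the canonical transcript of the 9 genes, for WT and Y36C cells, with bars at the median of the intron ends. In WT cells BRD9 and DVL2 lie above 0 at every end and ZDHHC16 at or below 0 at nearly every end, while in Y36C cells most ends of ZDHHC16 and DPH5 lie above 0.

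In BRD9 all 30 intron ends rose in WT cells, at both ends of all 15 introns, and 10 of 21 tested ends rose in Y36C cells. The steepest case was the acceptor end of intron 2 (chr5:891403-891754). It was at a median of 0 with a highest sample of 7.69% in WT DMSO, and between 62.1% and 79.0% with a median of 70.8% in WT E7107. In Y36C cells it had a median of 0 with DMSO and 0.794% with E7107, with a highest sample of 5.71%. The WT E7107 samples stood apart from all others, with a log odds change of 4.93 ± 0.39 (SE; limma, adjusted p = 4.05e-07) and an interaction of -4.48 ± 0.54 (limma, adjusted p = 3.46e-07). Both tests passed the filter only through WT E7107, the group where this end is high, which favours such a difference. The 10 ends that rose in Y36C cells lay at 6 introns. At the acceptor end of intron 6 the Y36C median was 28.8% with DMSO and 51.4% with E7107 (limma, log odds 1.01 ± 0.14 SE, adjusted p = 0.000395), and at the acceptor end of intron 9 it was 13.8% and 40% (1.37 ± 0.13, adjusted p = 4.02e-05). Intron 15, by contrast, had acceptor medians of 0.455% and 0 in Y36C cells and of 0 and 46.5% in WT cells. In all, 33 of 37 BRD9 boundaries tested under E7107 were lower in Y36C than in WT cells, where 62.9% of all boundaries tested were lower.

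In DVL2 intron ends rose in both lines. Of 27 ends tested, 26 rose in WT cells, and of 21 tested 14 rose in Y36C cells. The DVL2 introns are short, with a median length of 131.5 bases, and GC-rich, with a median of 61.2%. At the acceptor end of intron 3 (chr17:7133475-7133603) the samples ran from 1.16% to 8.65% with a median of 4.00% in WT DMSO, and from 8.82% to 36.6% with a median of 28.7% in WT E7107. In Y36C cells they ran from 6.17% to 10.7% with a median of 8.94% and from 50.9% to 72.1% with a median of 55.2%. Every Y36C E7107 sample was above every WT E7107 sample, and the lines differed under E7107 by 1.49 ± 0.29 log odds units (limma, adjusted p = 0.000781). The interaction there was 0.71 ± 0.37 (limma, adjusted p = 0.124), and the difference between the lines with DMSO was 0.77 ± 0.23 (limma, adjusted p = 0.281). Intron 2 of the same transcript went the other way. Its acceptor end had medians of 5.29% and 28.2% in WT cells and 4.33% and 5.63% in Y36C cells, with an interaction of -1.62 ± 0.37 (limma, adjusted p = 0.000906). Over the gene, 7 of 28 boundaries tested under E7107 were higher and 9 lower in Y36C than in WT cells, where 11.7% of all boundaries were higher and 62.9% lower.

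**Figure D3:**
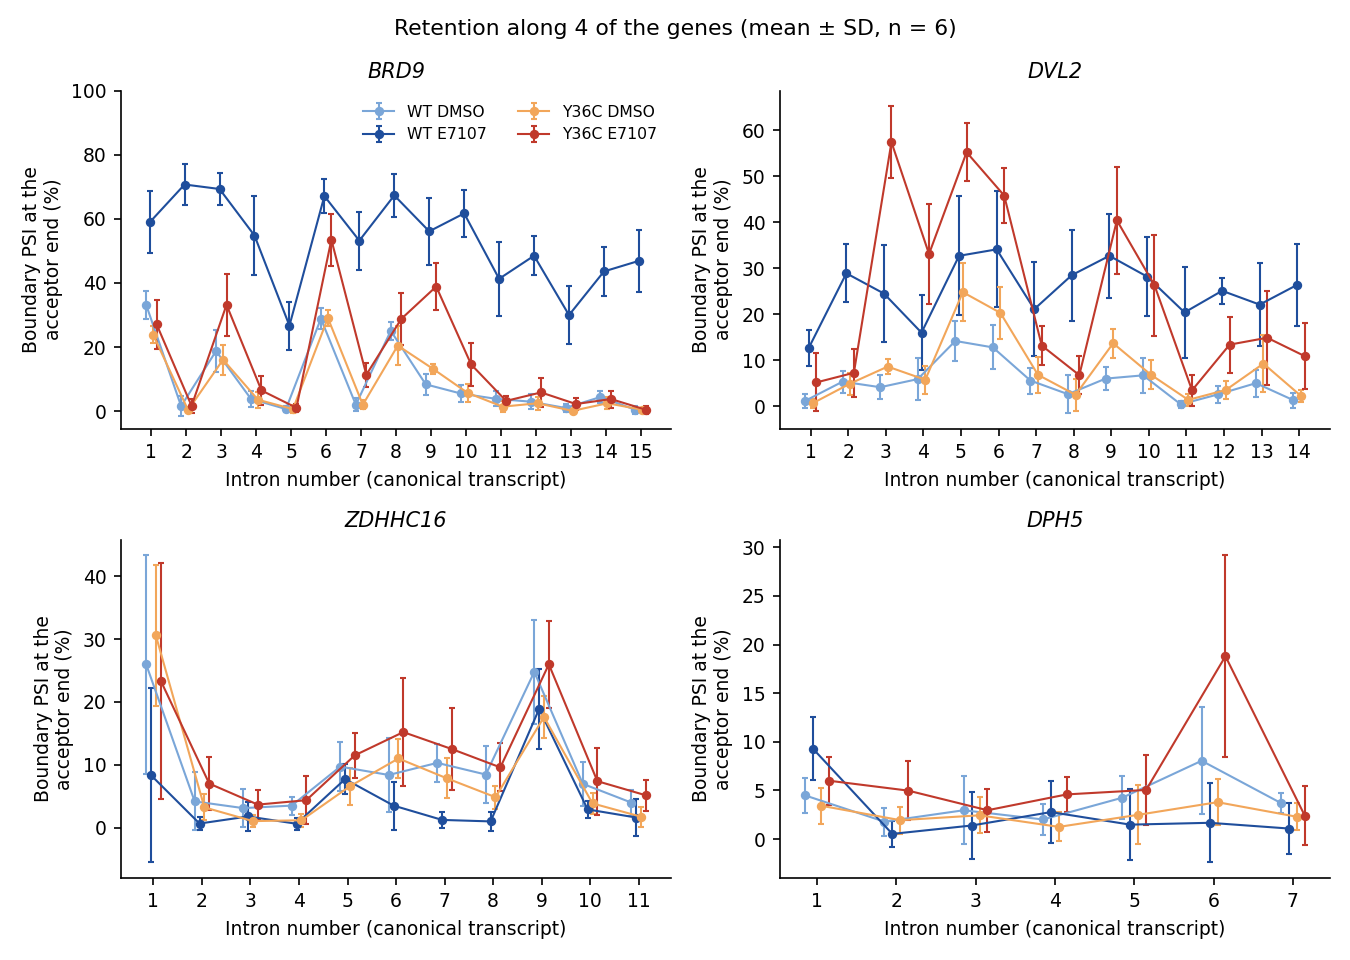
Boundary PSI at the acceptor end (vertical axes, percent) of each intron of BRD9, DVL2, ZDHHC16 and DPH5, numbered 5′ to 3′ on the horizontal axes, as mean ± SD of 6 samples in the 4 groups. WT E7107 is highest along BRD9, Y36C E7107 exceeds WT E7107 at introns 3 to 6 and 9 of DVL2, and WT E7107 is the lowest group at most introns of ZDHHC16.

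In ZDHHC16 and DPH5 intron ends fell in WT cells. In ZDHHC16, 8 of 18 tested ends fell in WT cells, where 5.78% of all boundaries fell, and 3 of 14 rose in Y36C cells, where 27.5% of all rose. At the acceptor end of intron 7 (chr10:99213421-99213555) the medians were 11.5% with DMSO and 1.06% with E7107 in WT cells, and 7.27% and 12.4% in Y36C cells. All WT E7107 samples, at 2.70% or less, lay below all others, which started at 3.12%. The WT change was -1.88 ± 0.30 (limma, adjusted p = 0.000182) and the interaction 2.28 ± 0.43 (limma, adjusted p = 0.000128). In DPH5, 6 of 9 tested ends fell in WT cells and 1 rose, and 3 of 11 rose in Y36C cells. The acceptor end of its intron 6, which holds its cryptic site, had medians of 8.01% and 0 in WT cells and 4.06% and 16% in Y36C cells. It thus fell in WT cells (limma, log odds -1.66 ± 0.51, adjusted p = 0.0151) and rose in Y36C cells (1.66 ± 0.39, adjusted p = 0.00992), with an interaction of 3.32 ± 0.65 (adjusted p = 0.000175). One of the 6 WT E7107 samples there was at 10% and the others at 0. The fall in WT cells and the rise in Y36C cells each passed the filter only through the group where this end is high, which favours them. At the donor of the same intron the smallest listed value above 0 ran from 2.13% to 31.8% in WT E7107. In WT DMSO it ran from 0.709% to 2.70%, and the part of depth in the fall was not tested.

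DLST and TMEM14C retained little. In DLST, 4 of 24 tested ends rose and 2 fell in WT cells, and 6 of 16 rose in Y36C cells. The acceptor end of intron 5, beside the cryptic site, had medians of 4.39% and 5.50% in WT cells (limma, adjusted p = 1) and rose in Y36C cells from a median of 4.21% to 12.7%, with no overlap between the Y36C groups (limma, log odds 0.99 ± 0.11 SE, adjusted p = 0.000102, and interaction 0.99 ± 0.26, adjusted p = 0.00283). The upstream site and the retained end thus rose in the same group at this intron. The acceptor end of DLST intron 7 fell in WT cells, from a median of 13.1% to 3.44% (limma, log odds -1.39 ± 0.27, adjusted p = 0.000782). That comparison passed the filter only through WT DMSO, where this end is high, which favours a fall. In TMEM14C, 1 of 5 tested ends fell in WT cells, the acceptor end of intron 1, from a median of 5.27% to 2.97% (limma, log odds -0.62 ± 0.21, adjusted p = 0.0262).

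In MAP3K7 the donor end of the long first intron rose in WT cells and its acceptor end did not pass the test. The donor end of intron 1 (chr6:91281527-91296482, 14956 bases) had a median of 1.98% in WT DMSO and of 69.2% in WT E7107, with all 6 WT E7107 samples at 51.7% or more. In Y36C cells the medians were 2.92% and 4.86%, with a highest sample of 7.79%. The rise in WT cells was 4.39 ± 0.40 log odds units (limma, adjusted p = 1.59e-06) and the interaction -4.05 ± 0.49 (limma, adjusted p = 3.55e-07). The WT comparison passed the filter only through WT E7107, where this end is high, which favours a rise. At the acceptor end of the same intron the WT medians were 6.09% and 1.79% (limma, log odds -1.06 ± 0.44, adjusted p = 0.061). The acceptor end of intron 12 fell in WT cells from a median of 10.6% to 0, with a highest WT E7107 sample of 4.55% (limma, log odds -2.30 ± 0.31, adjusted p = 3.92e-05). It was above 0 in 1 of 6 WT E7107 samples and passed the filter only through WT DMSO, which favours a fall. Read counts there are unknown, and the part of depth was not tested. Only 10 of 32 MAP3K7 intron ends passed the filter in WT cells. In PPP2R5A 3 of 24 ends were tested in WT cells, all acceptor ends, and these 3 rose, but those of introns 4 and 8 passed the filter only through WT E7107. In ORAI2 0 of 6 ends could be tested in WT cells.

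Over the 97 introns of the 9 genes, the change in retention (the mean of both ends) correlated across introns with intron GC content, with Pearson r = 0.48 and Spearman rho = 0.35 in WT cells and r = 0.44 and rho = 0.50 in Y36C cells. Without BRD9, 82 introns gave r = 0.43 and rho = 0.15 in WT cells and r = 0.46 and rho = 0.45 in Y36C cells. These are descriptions only, since introns of 1 gene share their transcript and its depth, and WT rho moved most when BRD9 was left out.

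Junctions that span an annotated internal exon of any transcript of the gene were counted as skipping junctions. The class thus also holds junctions between neighbouring exons of the canonical transcript, over an exon of other transcripts. Their PSI at the donor includes retained reads, so a fall need not be less skipping of a canonical exon. In Y36C cells 14 member junctions were called higher, and in WT cells the calls were falls. Of 51 skipping junctions tested at the donor in Y36C cells, 14 rose (27.5%) and 2 fell (3.92%), where 31.3% of 27996 rose and 6.67% fell over all genes. Of 41 tested in WT cells 0 rose, with 1 higher at an unadjusted limma p under 0.05, and 14 fell (34.1%), where 20.9% of 22374 rose and 24.1% fell. Of the member falls 4 were in BRD9, 2 in MAP3K7 and 1 in PPP2R5A. In these genes no junction across exons of the canonical transcript was called lower in WT cells. The other falls were 3 in DPH5, 2 in DLST and 2 in TMEM14C. In DPH5, DLST and TMEM14C junctions across canonical exons were called lower (limma, adjusted p from 4.94e-08 to 0.0491). The lowest p was for DPH5 exon 4, with a mean of 4.76% in WT DMSO and 0 in WT E7107. That junction passed the filter only through WT DMSO, which favours a fall. The difference of drug effects was positive for 21 of 54 tested (38.9%) and negative for 0, with 1 negative at an unadjusted limma p under 0.05, where 32.5% of 28311 were positive and 13.0% negative. Over the members the median change was -1.84 points in the WT line and 0.697 points in the Y36C line, and -0.375 and 1.25 points over all skipping junctions tested.

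The largest rise was at exon 10 of DVL2, 68 bases long, whose skipping junction (chr17:7131103-7132287) is not annotated. PSI at the donor was at most 1.06% in WT DMSO and at most 3.57% in WT E7107, with medians of 0 in both. In Y36C cells it ran from 1.67% to 4.76% with a median of 3.56% with DMSO and from 7.14% to 37.2% with a median of 20.4% with E7107. The Y36C groups did not overlap each other or the WT DMSO samples. Skipping rose by 1.74 ± 0.29 log odds units in Y36C cells (limma, adjusted p = 0.00126), with an interaction of 1.72 ± 0.41 (limma, adjusted p = 0.0014). With DMSO the genotypes differed by 1.24 ± 0.20 (limma, adjusted p = 0.0337). That comparison, of small values, passed the filter only through Y36C DMSO, the group where skipping is higher, which favours a difference. In the same transcript skipping of exons 4 and 5 together had medians of 1.20% and 4.82% in Y36C cells and 0 in both WT groups, a junction chosen after its values were seen.

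**Figure D4:**
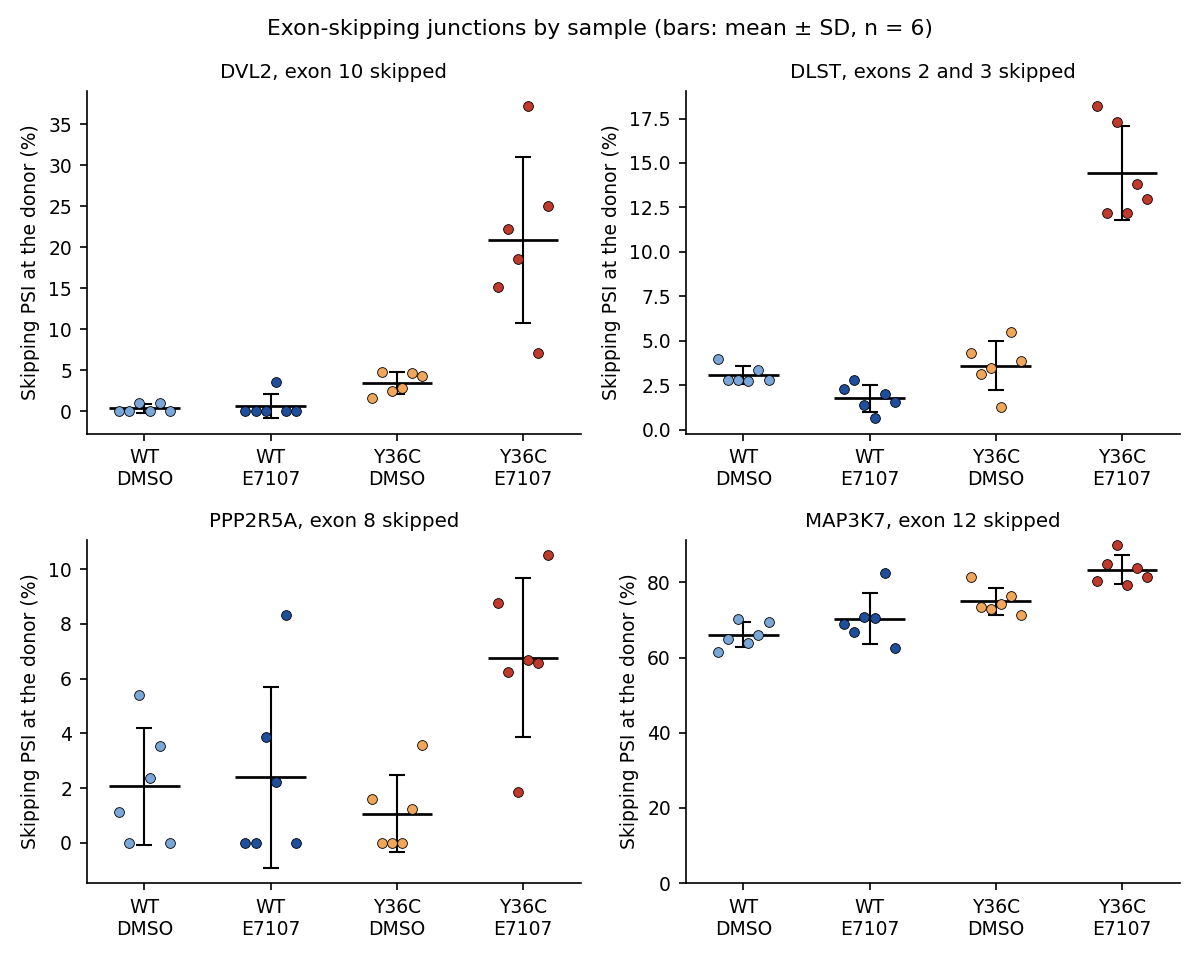
PSI of exon-skipping junctions at the donor (vertical axes, percent) for DVL2 exon 10, DLST exons 2 and 3, PPP2R5A exon 8 and MAP3K7 exon 12 in 6 samples of each of the 4 groups, with bars at mean ± SD. Y36C E7107 has the highest mean in all 4 panels, and for DLST its lowest sample, at 12.2%, is above every sample of the other groups.

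DLST had the most skipping junctions that rose. Joint skipping of its exons 2 and 3 ran from 2.75% to 3.98% with DMSO and from 0.633% to 2.78% with E7107 in WT cells. In Y36C cells it ran from 1.29% to 5.49% and from 12.2% to 18.2%, with medians of 3.66% and 13.4%. It rose by 1.37 ± 0.17 in Y36C cells (limma, adjusted p = 0.000175) and fell by 0.43 in WT cells (limma, adjusted p = 0.0197). The interaction was 1.79 ± 0.22 (limma, adjusted p = 5.00e-07). The 7 DLST skipping junctions tested in Y36C cells rose, of which those of exons 2 to 4, exon 4 and exon 10 passed the filter only through Y36C E7107, and 2 of the 5 tested in WT cells fell. Exon 6, which follows the intron with the cryptic site and is named after its values were seen, was among the 7, with medians of 2.13% and 1.76% in WT cells and of 3.44% and 9.24% in Y36C cells, DMSO first.

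In MAP3K7, exon 12 is an alternative exon that most transcripts already left out. Its skipping had medians of 65.5% with DMSO and 69.7% with E7107 in WT cells and of 73.9% and 82.7% in Y36C cells, and it rose in Y36C cells by 0.50 ± 0.14 (limma, adjusted p = 0.0234). The difference between drug effects did not pass the test (limma, 0.29 ± 0.22, adjusted p = 0.283). Skipping of MAP3K7 exon 3, chosen after its values were seen, had a median of 0 in both WT groups, and in Y36C cells 0.495% with DMSO and 5.38% with E7107. PPP2R5A exon 8 was skipped at medians of 1.74% and 1.11% in WT cells and of 0.617% and 6.61% in Y36C cells, and rose in Y36C cells by 1.48 ± 0.33 (limma, adjusted p = 0.00735) with an interaction of 1.54 ± 0.61 (adjusted p = 0.0404). This junction and that of MAP3K7 exon 3 passed the filter only through Y36C E7107, which favours a rise there. ZDHHC16 exon 2, by contrast, was skipped at medians of 79.4% and 78.6% in WT cells and of 74.2% and 71.3% in Y36C cells, and passed no test (limma, adjusted p = 0.805 in WT and 0.657 in Y36C cells).

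Without the drug, few entries of these genes differed between the lines. Of 424 member entries tested between Y36C DMSO and WT DMSO, 5 were higher (1.18%) and 2 lower (0.472%), where 0.137% of 375743 entries were higher and 0.133% lower (limma, adjusted p of 0.05 or less). With an offset of 0.1 percentage points in place of 1 the counts were 1 higher and 0 lower. The 7 entries came from 4 places. The DVL2 exon 10 skipping junction was 1 of them, at the donor as given above and at the acceptor with medians of 0 in WT DMSO and 2.92% in Y36C DMSO (limma, adjusted p = 0.0369). At the donor and at the acceptor it passed the filter only through Y36C DMSO, which favours a difference. At an acceptor inside ZDHHC16 exon 10, at 99215470 of chromosome 10, unspliced reads had medians of 89.4% in WT DMSO and 94.7% in Y36C DMSO, and the junction to it 10.6% and 5.27% (limma, log odds of the junction -0.60, adjusted p = 0.0374). At the acceptor end of PPP2R5A intron 11 the boundary had medians of 3.39% and 0, and the junction 96.6% and 100% (limma, adjusted p = 0.023). The boundary passed the filter only through WT DMSO, where it is higher. The last was a boundary at 850717 of chromosome 5, beyond the canonical BRD9 transcript, with medians of 50% and 75.7% (limma, adjusted p = 0.016). The BRD9 span overlaps ZDHHC11 on the same strand there, a gene that holds 7 of the 145 BRD9 boundaries listed. Of the 3 upstream 3′ sites tested with DMSO, 0 differed between the lines, also at an unadjusted limma p under 0.05.

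Taking all kinds of entry together, 84 of 412 tested members rose in WT cells (20.4%) and 116 fell (28.2%), where 26.4% and 29% of all entries did. In Y36C cells 72 of 426 rose (16.9%) and 63 fell (14.8%), where 11.7% and 11.6% did. The interaction was positive at 106 of 446 (23.8%) and negative at 80 (17.9%), where 25.4% and 23% of all were. Under E7107, 126 of 421 member entries were higher in Y36C than in WT cells (29.9%) and 91 lower (21.6%), where 30.4% and 27.2% of 367408 were.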

How the data were processed

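The authors aligned poly(A) RNA-seq reads to hg19 with STAR (version not given in the sources used here), counted junction and exon–intron boundary reads, and deposited PSI in percent for each of 24 samples, relative to all reads at a splice site. Read counts are not in the files used here, and whether counting used strand is not given in the sources used here, so reads of overlapping genes cannot be told apart. Each file held 1830076 entries, of which 6433, mitochondrial or without strand, were left out. Sites that summed to 0 were treated as missing. GENCODE on GRCh37 gave gene spans and exons, and sequences were read from GRCh37.

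An entry was tested where its site had reads in every sample fitted and PSI was above 0 in all 6 samples of a group. limma 3.58.1 (R 4.3.3) was fitted over all entries, after PSI was turned into natural log odds (1 percentage point added on either side), with Benjamini-Hochberg adjustment. Pairwise comparisons used 12 samples and the interaction all 24. Shares between 2 acceptors were compared by exact permutation (Python 3.11.15, numpy 2.4.6, scipy 1.17.1), for which 0.00216 is the smallest p of a pairwise comparison. On simulated data with 357816 entries, for E7107 against DMSO in WT cells, limma recovered 19.0% of shifts of 1 log odds unit and 49.0% of shifts of 2. Only a small part of the simulated entries was shifted, where 26.4% of entries rose and 29% fell in the real comparison. The adjustment was thus stricter in the simulation, and these rates do not measure the sensitivity of the tests given here.

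The genes, lists and tests were chosen with earlier results of these data known. Named were upstream sites with reads in all 6 samples of a group, the exon found inside an intron by the same filter, the boundaries beside them, and per gene the boundary with the largest rise and fall and the skipping junction with the largest rise. Other boundaries and junctions given by value were chosen after their values were seen. A comparison with other genes is not reported here. Alternatives were another offset, PSI as the response, 2 other filters, a minimum change and the replicate number as a block.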

Additional observations from a re-analysis of the deposited data

Results flagged for a closer look

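In 213 sets of 6 samples, 20 held a sample that stood apart from the others by Dixon's criterion. For normally distributed values, chance flags about 1 in 20 groups. Several of the sets flagged here held mostly zeros, and that rate does not hold for them. In WT DMSO these were 7.69% at the acceptor end of BRD9 intron 2, 2.35% for skipping of DLST exon 3, 7.14% at the acceptor end of ORAI2 intron 1 and 67.5% for skipping of ZDHHC16 exon 2. In WT E7107 they were 4.00% for the junction from the BRD9 exon to the acceptor inside intron 14, 3.37% at the donor end of DLST intron 5, 10% at the acceptor end of DPH5 intron 6, 2.13% and 3.57% at the acceptor and the donor for skipping of DVL2 exon 10, 4.55% at the acceptor end of MAP3K7 intron 12, 41.7% and 18.8% at the acceptor ends of PPP2R5A introns 4 and 8, and 0 at the donor end of ZDHHC16 intron 1. In Y36C DMSO they were 4.45% at the acceptor end of DLST intron 2, 1.22% at the donor end of MAP3K7 intron 4, 6.52% at the acceptor end of PPP2R5A intron 8 and 2.59% at the acceptor end of TMEM14C intron 1. In Y36C E7107 they were 69.6% at a donor inside BRD9 intron 8, 20.6% at the acceptor end of MAP3K7 intron 12 and 7.81% at the donor end of MAP3K7 intron 4.

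The effect of E7107 differed between Y36C and WT cells, by a test of the difference, for the following values. In share of splicing it differed by 2.53 points for the DLST site, 4.52 points for the MAP3K7 site and 12.1 points for the BRD9 exon (exact permutation). On the log odds scale (limma) it was more positive in Y36C cells by 0.99 for the DLST site, 1.74 for the MAP3K7 site, 2.85 for the BRD9 junction inside intron 14, 0.76 and 0.99 at the donor and acceptor ends of DLST intron 5, 1.86 at the acceptor end of DLST intron 7, 1.79 for skipping of DLST exons 2 and 3, 3.32 at the acceptor end of DPH5 intron 6, 0.65 at a donor inside DVL2 exon 4, 1.71 and 1.72 at the acceptor and the donor for skipping of DVL2 exon 10, 2.21 and 2.31 at the acceptor ends of MAP3K7 introns 12 and 11, 1.54 for skipping of PPP2R5A exon 8 and 0.61 for skipping of ZDHHC16 exon 8. It was more negative in Y36C cells at 3 boundaries, with -4.48 at the acceptor end of BRD9 intron 2, -4.05 at the donor end of MAP3K7 intron 1 and -1.62 at the acceptor end of DVL2 intron 2.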

How the results depend on the processing

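No direction reversed under the alternatives run. With a change of at least 10 percentage points required, member entries called in WT cells were 65 lower (116 without the limit), in Y36C cells 24 higher and 30 lower (72 and 63), between genotypes under E7107 67 higher (126) and for the interaction 62 higher (106). Between the lines with DMSO, where 5 were higher and 2 lower, the higher count was 1 with an offset of 0.1, 3 with PSI as the response, 1 with PSI above 0 in any sample, 2 with a mean PSI of at least 5 percent and 1 with the 10-point limit, and the lower count was 0 under each of these except PSI as the response. With retention included, PSI of the BRD9 exon fell in WT cells (-9.59 points, exact permutation, adjusted p = 0.0108). Of 227 single results, 81 of them called, 11 lost the call and 1 gained it with an offset of 0.1, 7 lost it and 3 gained it with PSI as the response, 15 lost it with PSI above 0 in any sample, and 2 of the 171 that could be fitted lost it with a mean PSI of at least 5 percent. The cause of these changes was not tested, except that the 10-point limit removes calls by construction. At the donor of the MAP3K7 cryptic site the smallest value above 0 had its highest median in WT E7107, read counts are unknown, and the part of depth was not tested.

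The replicate numbers did not pair the samples. Over 393937 entries the 36 correlations between same-numbered samples of different groups ran from -0.00696 to 0.00781, and 8 of 36 were highest with their own number. With the replicate block, the counts between the lines with DMSO were 0 higher and 0 lower, and of the 227 single results 13 lost the call and 4 gained it. For shares, the paired exact permutation can give no p below 0.03125, so that after adjustment none of the differences passed: 1.93, 2.48 and 2.53 points for DLST and -4.22 and 4.52 points for MAP3K7 (each adjusted p = 0.125), and 2.77 points for MAP3K7 and 8.13, 8.68 and 12.1 points for the BRD9 exon (each adjusted p = 0.139).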
